A study of Arabidopsis thaliana with 21 samples.

Results

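Etiolated seedlings of the Arabidopsis thaliana pif3 mutant were compared with wild-type seedlings, all in the Col-0 ecotype and all grown in darkness. The comparison takes 12 of the 21 arrays of the series by their genotype and time labels: 3 of pif3 and 3 of wild type after 4 days of darkness (D0), and 3 of pif3 and 3 of wild type after 1 h more of darkness (D1). The 6 pif3 and 6 wild-type arrays gave 1 genotype difference at each time, and the mean of both differences is the main measure below, with each time also given alone. The labels name no pif3 allele and do not say whether the mutant is 1 line or how many seedlings were pooled, and they call the 3 arrays of a group biological replicates. All seeds, of both genotypes, were plated without sucrose, kept at 4 °C in the dark for 4 days, given 3 h of white light to start germination and moved to 21 °C in darkness, and 5 ug of total RNA per sample was labelled with biotin for 1-colour Affymetrix arrays. The other 9 arrays are wild type only: 3 kept in darkness for 18 h more (D18), 3 moved to continuous red light for 1 h (R1) and 3 for 18 h (R18).

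PIF3, a transcription factor of the bHLH class, interacts with phytochrome once red light has activated that receptor. It accumulates in the nucleus in darkness and is broken down after light strikes phytochrome. With related PIF proteins it keeps seedlings in the dark-grown form, with a long hypocotyl, closed cotyledons and chloroplast genes held low.

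The medians of the authors' deposited intensities ranged between 36.2 and 89.1 in the 6 pif3 arrays and between 41.0 and 103 in the 6 wild-type arrays, so arrays were quantile-normalized before any comparison. The 25S rRNA control probe set read 4289 to 5410 normalized units in the 6 pif3 arrays, and 4306 to 4927 in 4 wild-type arrays. It read only 624 in wild type D0 replicate 1 and 689 in wild type D1 replicate 2, and counts without both arrays are given beside the results they change. The ratio of the 3' to the 5' GAPDH probe set ran from 1.31 to 1.998 in pif3 and from 1.46 to 1.70 in wild type, with the highest value in pif3 D0 replicate 3. Of 22746 probe sets tested, 13513 carry 1 gene in the platform annotation, which gave 13355 genes, 1551 of them with a symbol other than the locus number. No probe set carries the name PIF3 in that annotation, so the mutated gene's own transcript was not used to check the genotype labels.

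In darkness, pif3 differed from wild type modestly. Averaged over D0 and D1, 406 probe sets changed at an adjusted p under 0.05 in the limma fit (1.78% of those tested), 257 higher (1.13%) and 149 lower (0.655%) in pif3. Log2 changes refer to log2 of the normalized intensity plus an offset of 16, a scale that understates changes of dim genes. The median change among the called probe sets was 0.40 for those higher and -0.34 for those lower. Only 7 probe sets (0.0308%) were at least 2-fold higher and 2 (0.00879%) at least 2-fold lower. All 406 had the same sign at both times. The pif3 and wild-type arrays did not overlap at either time in 190 of the 257 higher and 125 of the 149 lower. Those were 0.835% and 0.55% of all probe sets tested. Called or not, the arrays stood apart in this way in 1.82% of all probe sets for higher and 1.72% for lower values in pif3. Without both low-25S arrays the count was 191, of which 133 were higher and 58 lower in pif3. The count also fell by more than 1.5 times when any of 8 single arrays was left out: 232 without wild type D0 replicate 1, and 194, 260 and 223 without wild type D1 replicates 1, 2 and 3. It was 200 and 183 without pif3 D0 replicates 1 and 3, and 180 and 190 without pif3 D1 replicates 1 and 3.

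Among genes with a name in the annotation, 200 changed (1.5%), 127 higher (0.951%) and 73 lower (0.547%). The arrays of the genotypes stood apart at D0 and at D1 in 93 of the 127 higher and 58 of the 73 lower. Those were 0.696% and 0.434% of all named genes. Called or not, the arrays stood apart at both times in 1.71% of all named genes for higher and 1.28% for lower values in pif3. Of the 200 genes, 53 were called in each of the 12 fits that left out 1 array, 32 of them higher and 21 lower. The called genes lay on all nuclear chromosomes, at 1.93% of the measured genes of chromosome 1, 1.19% of chromosome 2, 1.47% of chromosome 3, 1.34% of chromosome 4 and 1.4% of chromosome 5.

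Some of the largest changes were in probe sets that carry no gene in the annotation, and the extreme ones are given by their ID. Probe set 264510_at read 2.87, 12.3 and -5.70 in pif3 against 396, 498 and 599.5 in wild type at D0. It also read 9.34, 26.9 and 1.74 in pif3 against 558, 536 and 599.8 in wild type at D1. Signal was thus near 0 in all 6 pif3 arrays and well above it in all 6 wild-type arrays. The log2 change of -4.53 (SE 0.19, adjusted p = 7e-09) rests on the offset, and ranged from -5.71 to -3.03 over the settings tried. Probe set 256601_s_at read 261 to 346 in the 6 pif3 arrays and 639 to 927 in the 6 wild-type arrays, a log2 change of -1.36 (SE 0.14, adjusted p = 0.00015). Upward, probe set 267002_s_at read 4592 to 6488 in the 6 pif3 arrays and 1317 to 1933 in the 6 wild-type arrays, a log2 change of 1.83 (SE 0.094, adjusted p = 5.1e-08). The genotypes did not overlap in any of these 3 probe sets. Nor did they in probe set 253040_at, which read 132 to 296 in the 6 pif3 arrays and 31.6 to 95.8 in the 6 wild-type arrays, with a log2 change of 1.39 (SE 0.25, adjusted p = 0.0135).

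The increases described next are the 10 largest among called genes whose pif3 and wild-type arrays stood apart at D0 and at D1, so that separation was part of the choice. Of these 10, 9 have no symbol in the gene table, and no role is given for them. AT5G16030 had the smallest p of them. Its normalized intensities were 595, 504 and 666 in pif3 against 202, 258 and 236 in wild type at D0, and 426, 447 and 519 in pif3 against 191, 203 and 245 in wild type at D1. Every pif3 array lay above every wild-type array. The log2 change was 1.18 (SE 0.11, adjusted p = 9.2e-05), 1.28 at D0 (adjusted p = 0.00242) and 1.07 at D1 (adjusted p = 0.0212). It was the only named gene called higher at D1 alone as well as at D0 and in the mean.

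AT3G05730 had the largest called increase of a named gene in the mean. It read 740.0, 919 and 467 in pif3 against 111, 408 and 380.1 in wild type at D0, and 1085, 887 and 1103 in pif3 against 281, 259.6 and 396 in wild type at D1. The lowest wild-type value was that of D0 replicate 1, which also has a low 25S signal, and the genotypes stood apart at each time. The log2 change was 1.51 (SE 0.30, adjusted p = 0.0206), it was called in 8 of the 12 fits that left out 1 array, and it was not called without both low-25S arrays.

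AT5G48490 read 94.1, 150.2 and 120.2 in pif3 against 37.7, 81.2 and 80.9 in wild type at D0, and 197, 210.4 and 171 in pif3 against 68.6, 59.0 and 82.3 in wild type at D1. Its pif3 values at D1 were all above those at D0, and no wild-type array reached a pif3 array. The log2 change was 1.03 (SE 0.15, adjusted p = 0.00543), 0.77 at D0 and 1.28 at D1. AT3G01920 read 116, 95.0 and 132 in pif3 against 51.9, 61.5 and 61.7 in wild type at D0, and 122, 107 and 131 in pif3 against 67.8, 33.2 and 43.9 in wild type at D1. AT3G62820 read 298, 263 and 275 in pif3 against 143, 159 and 135 in wild type at D0, and 202, 161 and 324 in pif3 against 100.04, 129.9 and 111 in wild type at D1. Both stood apart between genotypes at each time. Their log2 changes were 0.96 (SE 0.15, adjusted p = 0.00605) and 0.87 (SE 0.14, adjusted p = 0.00658). Intensities of AT5G25840 ranged from 59.8 to 138 in the 6 pif3 arrays and 33.4 to 69.9 in the 6 wild-type arrays, and those of AT4G33490 from 84.2 to 147 in the 6 pif3 arrays and 55.6 to 75.8 in the 6 wild-type arrays. The wild-type ranges lay wholly below the pif3 range for AT4G33490, while for AT5G25840 the D1 values of pif3 reached into the D0 values of wild type. The log2 changes were 0.85 (adjusted p = 0.00714) for AT5G25840 and 0.69 (adjusted p = 0.00609) for AT4G33490. AT1G04800 changed by 0.64 (SE 0.12, adjusted p = 0.0126) and AT4G24050 by 0.70 (SE 0.15, adjusted p = 0.0323), the second of which was called in only 4 of the 12 fits with 1 array left out. NAMT1, of the SABATH family of methyltransferases, read 88.9, 66.6 and 110.4 in pif3 against 48.4, 43.0 and 18.6 in wild type at D0, and 60.9, 70.9 and 83.7 in pif3 against 42.8, 50.5 and 46.0 in wild type at D1. All pif3 arrays were above all wild-type arrays, with a log2 change of 0.75 (SE 0.14, adjusted p = 0.0171).

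**Figure D1:**
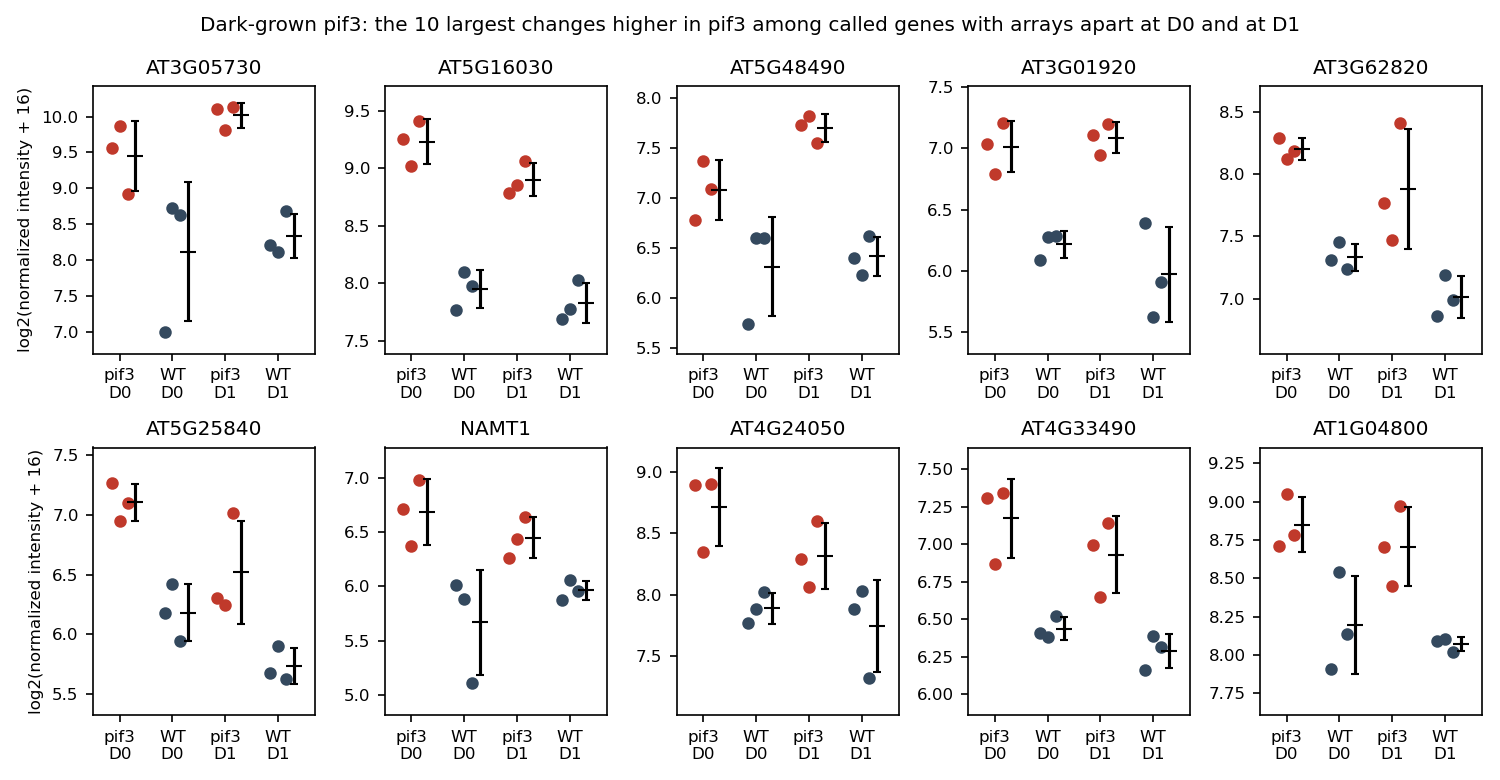
Normalized intensities of the 10 largest increases in pif3 among called genes with arrays apart at D0 and at D1, as log2 of intensity plus 16 on the vertical axis, with 1 red point per pif3 array and 1 dark blue point per wild-type array at D0 and at D1, and the mean with its SD beside each group of 3. The pif3 points at a time lie above the wild-type points of that time because the genes were chosen so, and AT3G05730 has 1 wild-type point at D0 far below the others.

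Photosynthesis genes were among the named increases. Of 5 measured antenna genes, 2 rose in pif3 (0.951% of all named genes were called higher), LHCB4.2 and LHCB4.1, which encode isoforms of CP29, a minor antenna protein of photosystem II. LHCB4.2 read 2704, 2528 and 3007 in pif3 against 1898, 1953 and 2178 in wild type at D0, and 2739.6, 2779.7 and 2791 in pif3 against 2010.1, 2000.4 and 2148 in wild type at D1. LHCB4.1 read 5306, 5125 and 4855 in pif3 against 3406, 4173 and 4002 in wild type at D0, and 5011, 4631 and 5352 in pif3 against 3676, 3955 and 4125 in wild type at D1. No wild-type array reached a pif3 array in either gene. The log2 changes were 0.44 (SE 0.055, adjusted p = 0.00158) and 0.38 (SE 0.061, adjusted p = 0.00658), and both were called in all 12 fits with 1 array left out and without both low-25S arrays. The third isoform, LHCB4.3, read 127 to 179 in the 6 pif3 arrays and 152 to 197 in the 6 wild-type arrays, a log2 change of -0.10 that did not pass the test (adjusted p = 0.67). LIL3:1 and LIL3:2, light-harvesting-like proteins tied to chlorophyll synthesis, gave -0.04 and 0.00 (adjusted p = 0.96 and 1.00), so the median of the 5 genes was 0.003, and -0.081 without both low-25S arrays.

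Of 7 measured nuclear genes for photosystem subunits and electron transport, 1 rose, against 0.951% of all named genes. PSAN, a lumenal subunit of photosystem I, read 1033, 1216 and 1191 in pif3 against 867, 1009.6 and 939 in wild type at D0, and 1310.3, 1199 and 1214 in pif3 against 1020.1, 897 and 1022 in wild type at D1. The genotypes stood apart at each time, with a log2 change of 0.31 (SE 0.075, adjusted p = 0.0479). That call was lost in each of the 12 fits with 1 array left out and without both low-25S arrays. The other 6 genes had positive values that did not pass the test: 0.42 for PSBY and 0.33 for PSBW, both small subunits of photosystem II (adjusted p = 0.0818 and 0.0552), 0.33 for PSAE-1, 0.25 for PSB27, 0.12 for ATPC1 and 0.07 for PGRL1B. The list's median was 0.311, against 0.00 over all 13355 genes, and 0.225 without both low-25S arrays. NdhS, the ferredoxin-binding subunit of the chloroplast NADH dehydrogenase-like complex and outside that list, read 618 to 781 in the 6 pif3 arrays and 473 to 562 in the 6 wild-type arrays. Its genotypes did not overlap, and it changed by 0.39 (SE 0.071, adjusted p = 0.014), with a call in all 12 fits with 1 array left out.

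No gene of the Calvin cycle passed the test, although all 4 measured had positive values, with a median of 0.229 that was 0.11 without both low-25S arrays. PRK, phosphoribulokinase, read 3162, 3011 and 3303 in pif3 against 2043, 1975 and 3001 in wild type at D0, and 3093, 2547 and 3384 in pif3 against 2354, 2831 and 2676 in wild type at D1, and the genotypes overlapped at D1 (log2 change 0.32, adjusted p = 0.22). RCA, Rubisco activase, gave 0.25 (adjusted p = 0.29) and SBPASE, sedoheptulose-bisphosphatase, 0.21 (adjusted p = 0.58). None of 9 tetrapyrrole genes passed, with a median of 0.064 that was -0.013, with 4 of 9 positive, without both low-25S arrays. A count of 0 in so few genes is no result about either pathway, with 1.5% of all named genes called. CHLM, the magnesium protoporphyrin methyltransferase, gave 0.23 (adjusted p = 0.20), HEME1, a uroporphyrinogen decarboxylase, 0.27 (adjusted p = 0.28) and PORB, a protochlorophyllide oxidoreductase that is abundant in etiolated tissue, 0.19 (adjusted p = 0.61). In RCA, SBPASE, HEME1, HEME2 and PORB the lowest of the 12 values was that of wild type D0 replicate 1, with the low 25S signal. Whether that array's RNA bears on the values was not tested. HPR, the peroxisomal hydroxypyruvate reductase of photorespiration, rose by 0.37 (SE 0.083, adjusted p = 0.0369) with arrays at 1513 to 2338 in the 6 pif3 arrays and 1332 to 1592 in the 6 wild-type arrays, and was called in 3 of the 12 fits with 1 array left out and not without both low-25S arrays.

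For genes encoded in the plastid, the median difference of pif3 from wild type was larger at D0 than at D1. None of the 69 measured passed the test in the mean, against 1.5% of all named genes called. In the mean, 57 had positive values and the median was 0.158. Of all named genes with a mean intensity of at least 64, 50.9% were positive in the mean. The 69 genes were read on the same arrays, so their signs are not 69 separate observations. At D0 the median was 0.348, 62 of 69 were positive and 1 was called (0.202% of all named genes were called at D0). At D1 the median was -0.04 with 28 of 69 positive and none called (0.015% of all named genes were called at D1). At unadjusted p under 0.05 in limma there were 31 of the 69 at D0 and 0 at D1, against 2739 and 1709 of all 22746 probe sets. The called gene was atpA, the alpha subunit of the chloroplast ATP synthase. It read 4476, 4331 and 4528 in pif3 against 2542, 3245 and 2971 in wild type at D0, and 4125, 4667 and 3272 in pif3 against 4492, 3784 and 3984 in wild type at D1. The genotypes were apart at D0 and overlapped at D1, with log2 changes of 0.61 (SE 0.11, adjusted p = 0.0331) and -0.03 (adjusted p = 1.00). The change between times was not called for any of the 69 genes by limma, and -0.65 for atpA had an adjusted p of 1.00. An unadjusted p under 0.05 was found for 15 of the 69, against 857 of all 22746 probe sets. psaA, a core subunit of photosystem I, read 1392, 1712 and 1810.0 in pif3 against 221, 1047 and 411 in wild type at D0, and 773, 1021 and 501 in pif3 against 919, 653 and 610.1 in wild type at D1. Its log2 change was 1.79 at D0 (adjusted p = 0.0796) and 0.04 at D1 (adjusted p = 1.00), and the D0 wild-type values ran from 221 to 1047, with the lowest again in replicate 1. psbA, a reaction-centre protein of photosystem II, gave 0.34 at D0 and 0.34 at D1 (adjusted p = 0.51 and 0.74). By complex, the D0 median was 0.712 for 5 photosystem I genes, 0.464 for 10 NADH dehydrogenase-like genes, 0.366 for 6 ATP synthase genes, 0.301 for 15 photosystem II genes and 0.257 for 15 ribosomal proteins. The D1 medians of the same groups were -0.049, -0.054, 0.014, 0.051 and -0.141. Without both low-25S arrays the median of the 69 genes was 0.258 at D0, -0.124 at D1 and 0.09 in the mean, with 49 of 69 positive in the mean. The D1 medians by complex were then -0.027, -0.114, -0.013, 0.056 and -0.321 in the same order.

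**Figure D2:**
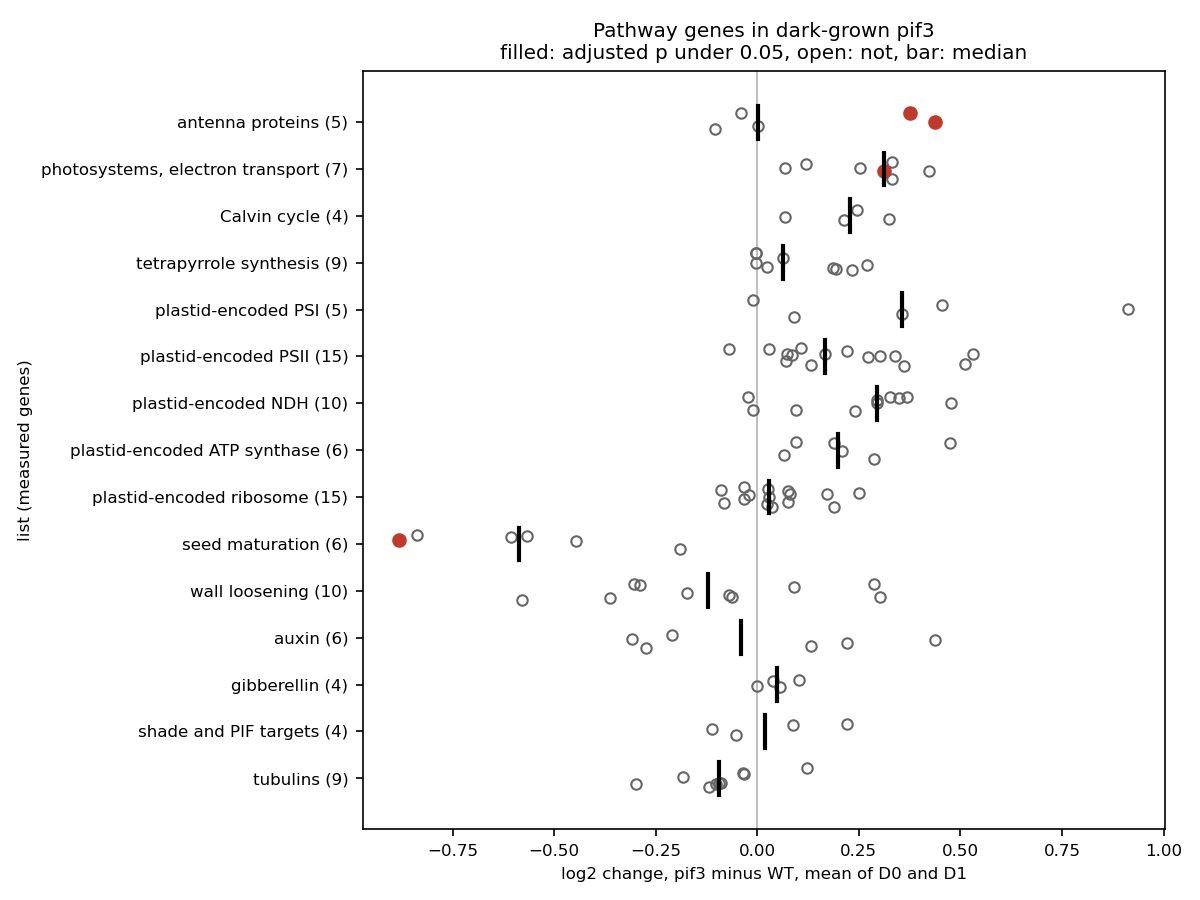
Log2 change in pif3 (mean of D0 and D1, horizontal axis) of each measured gene of 15 lists (vertical axis, with the number measured), filled red where the adjusted p was under 0.05 and open where it was not, with a bar at the list's median. The called genes are LHCB4.1 and LHCB4.2 among antenna proteins, PSAN among photosystem genes and M17 among seed maturation genes, and the medians are -0.039 for auxin, 0.048 for gibberellin and 0.018 for shade and PIF targets, or 0.049, 0.07 and 0.104 without both low-25S arrays.

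Several other called genes with a symbol were higher in pif3, chosen here after their values were seen because they carry a name. SPT, the bHLH factor SPATULA that acts in carpel growth and seed dormancy, read 390.0, 460.0 and 429.6 in pif3 against 323, 359 and 301 in wild type at D0, and 393, 376 and 422 in pif3 against 343, 347 and 355 in wild type at D1. Every pif3 array was above every wild-type array, with a log2 change of 0.27 (SE 0.05, adjusted p = 0.0132) that was called in all 12 fits with 1 array left out but not without both low-25S arrays. A pair of glycosyltransferases of hormones rose, each with the 6 pif3 arrays above the 6 wild-type arrays. IAGLU, which conjugates indole-3-acetic acid with glucose, read 1236 to 1418 in the 6 pif3 arrays and 912 to 1137 in the 6 wild-type arrays and changed by 0.30 (SE 0.059, adjusted p = 0.0207). UGT76C2, which glucosylates cytokinins, read 365 to 393 in the 6 pif3 arrays and 269 to 322 in the 6 wild-type arrays and changed by 0.30 (SE 0.065, adjusted p = 0.0318). UGT76C2 was the only one called of 43 measured genes in a UDP-glycosyltransferase list that does not hold IAGLU, near the 1.5% of all named genes called, and the list's median was -0.006. Without both low-25S arrays, neither IAGLU nor UGT76C2 was called.

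SWEET1, a glucose transporter of the plasma membrane, rose by 0.33 (SE 0.072, adjusted p = 0.0314), and its arrays stood apart at D0 and overlapped at D1. CCL, the CCR-like gene, read 3348 to 4352 in the 6 pif3 arrays and 2399 to 3516 in the 6 wild-type arrays and rose by 0.41 (adjusted p = 0.0369). TRM19, of the TON1 recruiting motif family linked to microtubule organization, rose by 0.51 (adjusted p = 0.0353), while TRM21 of the same family fell by 0.15 (adjusted p = 0.0456). Likewise the calmodulin-binding IQ-domain protein IQD22 rose by 0.45 (adjusted p = 0.025) and IQD28 fell by 0.26 (adjusted p = 0.0183). The smaller increases were 0.31 for HVA22C, a homologue of a stress-induced barley gene, 0.30 for the calmodulin-like CML30, 0.29 for Fes1C, 0.25 for the aldehyde dehydrogenase ALDH10A9, 0.22 for the linker histone gene HON4, 0.22 for CP5 and 0.10 for SAMDC, the S-adenosylmethionine decarboxylase of polyamine synthesis. Their adjusted p ran from 0.0206 for HVA22C and 0.0207 for HON4 to 0.0456 for SAMDC. Of the genes in this paragraph, none was called in all 12 fits with 1 array left out, and none but ALDH10A9 was called without both low-25S arrays.

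The decreases in pif3 were led by M17, a late embryogenesis abundant gene of seed maturation. It read 148, 162 and 122 in pif3 against 336, 294 and 209 in wild type at D0, and 200.1, 130.1 and 242 in pif3 against 307, 378 and 391 in wild type at D1. No pif3 array reached a wild-type array at the same time, and the log2 change was -0.88 (SE 0.18, adjusted p = 0.0258), the largest fall among called named genes. It was called in 6 of the 12 fits with 1 array left out, and not without both low-25S arrays. All 6 measured genes of the seed maturation list had negative values, with a median of -0.587, of which 1 was called (0.547% of all named genes were called lower). PAP85, a vicilin-like storage protein gene, read 835, 472 and 707 in pif3 against 1377, 824 and 1479 in wild type at D0, and 703, 680.4 and 852 in pif3 against 1122, 1637 and 1271 in wild type at D1. Its genotypes were apart at D1 but overlapped at D0, and its change of -0.84 did not pass the test (adjusted p = 0.06). M10 gave -0.61, AT3G01570 -0.57, AT3G15670 -0.45 and LEA4-5 -0.19, with adjusted p from 0.17 to 0.74. The list's median was -0.525 without both low-25S arrays.

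Cell wall genes of the TRICHOME BIREFRINGENCE-LIKE family, many of which O-acetylate wall polysaccharides, held 3 of the named decreases, out of 22 measured. The family was picked after its values were seen, so this share cannot be read against the 0.547% of all named genes called lower. TBL45 read 271, 258 and 279 in pif3 against 387, 383 and 389 in wild type at D0, and 245, 269.7 and 251 in pif3 against 364, 355 and 326 in wild type at D1. The groups were narrow and did not overlap. The log2 change was -0.46 (SE 0.048, adjusted p = 0.00024), and it was called at D0 (-0.50, adjusted p = 0.00752) and at D1 (-0.43, adjusted p = 0.0388), the only named gene called lower at D1. TBL37 read 943 to 1162 in the 6 pif3 arrays and 1282 to 1513 in the 6 wild-type arrays and TBL38 274 to 329.6 in the 6 pif3 arrays and 299 to 435 in the 6 wild-type arrays. The TBL37 arrays did not overlap and those of TBL38 stood apart within each time, with log2 changes of -0.37 (adjusted p = 0.0128) and -0.35 (adjusted p = 0.0356). The 22 measured genes of the family had a median of -0.035, with 9 of them positive. ATPMEPCRD, a pectin methylesterase gene, read 3093, 3001 and 3196 in pif3 against 4386, 3955 and 3769.8 in wild type at D0, and 2696, 3239 and 2855 in pif3 against 3973, 4352 and 3809.9 in wild type at D1. Its arrays did not overlap, and it fell by 0.42 (SE 0.076, adjusted p = 0.0128). Among 10 expansin and xyloglucan transglucosylase genes for wall loosening none was called, with values from -0.58 for EXLA3 to 0.30 for EXPA4. Since 1.5% of all named genes were called, that count is no result about these genes. EXPA8, with the smallest p of them, read 1026 to 1277 in the 6 pif3 arrays and 1312 to 1557 in the 6 wild-type arrays with a change of -0.29 (adjusted p = 0.0816). Without both low-25S arrays, TBL37, TBL38 and ATPMEPCRD were not called.

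A pair of jacalin-related lectin genes also fell, out of 4 measured in a family likewise picked after its values were seen, so its share cannot be read against the 0.547% of all named genes called lower. JAL33 read 2866, 2971 and 2638 in pif3 against 4125, 3398 and 4798 in wild type at D0, and 2836, 3086 and 2919.8 in pif3 against 3698, 3886 and 3676 in wild type at D1. Its genotypes did not overlap, with a log2 change of -0.44 (SE 0.073, adjusted p = 0.00813) that was called in all 12 fits with 1 array left out and without both low-25S arrays. JAL34 changed by -0.24 (adjusted p = 0.036) and was not called without those arrays. Further decreases with a symbol were -0.41 in AOP1, a dioxygenase of the family that modifies glucosinolates, -0.38 in Phox4, -0.32 in the chromatin remodelling factor CHR18, -0.31 in GPDHC1, a cytosolic glycerol-3-phosphate dehydrogenase, -0.31 in ENGase85A, an endo-beta-N-acetylglucosaminidase, and -0.31 in GSTU26, a tau-class glutathione transferase. Their adjusted p ran from 0.0154 for Phox4 to 0.0451 for AOP1, and none was called without both low-25S arrays. NET1C, an actin-binding NETWORKED protein, fell by 0.26 (adjusted p = 0.0154) with intensities of 17.2 to 27.7 in the 6 pif3 arrays and 24.8 to 35.6 in the 6 wild-type arrays. CYP71B30P read -20.2 to 1.95 in the 6 pif3 arrays and -3.97 to 6.84 in the 6 wild-type arrays, under the offset of 16 in every array, so its change of -0.26 (adjusted p = 0.018) rests on the offset. GSTU26 was 1 of 12 glutathione transferase genes measured and CYP71B30P 1 of 24 cytochrome P450 genes, with no other call in either family, against 1.5% of all named genes called.

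The other 9 of the 10 largest decreases among called genes with arrays apart at D0 and at D1 were in loci without a symbol. AT4G11290 read 165, 214 and 135 in pif3 against 272, 343 and 312 in wild type at D0, and 187, 195 and 191 in pif3 against 244, 297 and 283 in wild type at D1. All its pif3 arrays were below all its wild-type arrays, with a log2 change of -0.65 (SE 0.10, adjusted p = 0.00658). AT1G75900 read 624 to 793 in the 6 pif3 arrays and 873 to 1221 in the 6 wild-type arrays and changed by -0.57 (SE 0.09, adjusted p = 0.00658), without overlap. AT5G46040 read 21.3 to 35 in the 6 pif3 arrays and 42.2 to 82.6 in the 6 wild-type arrays and changed by -0.74 (SE 0.13, adjusted p = 0.0116), also without overlap. These 3 were called in all 12 fits with 1 array left out and without both low-25S arrays. AT2G28780, AT1G08310, AT5G63180 and AT1G22550 changed by -0.71, -0.64, -0.57 and -0.54 (adjusted p = 0.0369, 0.0323, 0.0383 and 0.0153), and none of them was called without both low-25S arrays. AT2G25460 changed by -0.77 (adjusted p = 0.0374) and AT1G62680 by -0.66 (adjusted p = 0.0323). The pif3 group means at D0 were under the offset of 16 in both, so those sizes rest on it.

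**Figure D3:**
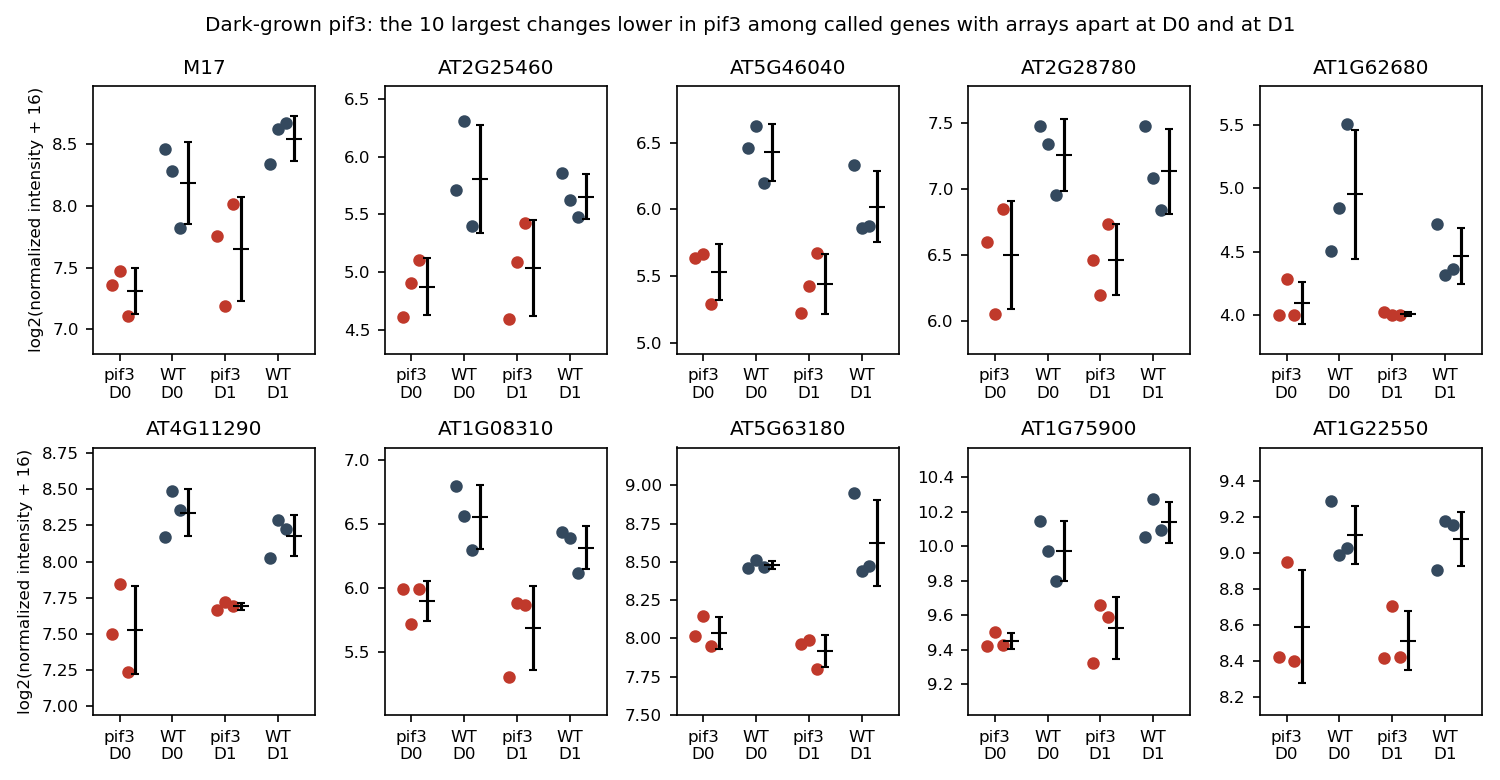
Normalized intensities of the 10 largest decreases in pif3 among called genes with arrays apart at D0 and at D1, as log2 of intensity plus 16 (values below 0 set to 0) on the vertical axis, with 1 red point per pif3 array and 1 dark blue point per wild-type array at D0 and at D1, and the mean with its SD beside each group of 3. Within a time the pif3 points lie below the wild-type points because the genes were chosen so, and several AT1G62680 points lie at the floor of the scale.

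Few growth and light pathway genes carry a name in the annotation used. None of 6 auxin, 4 gibberellin, 1 brassinosteroid, 1 ethylene, 4 shade and PIF target, 2 light signalling, 1 clock, 4 flavonoid or 1 carotenoid gene measured was called. With 1.5% of all named genes called, a count of 0 in so few genes is no result about these pathways. IAA20, an auxin response repressor, read 349, 355 and 366 in pif3 against 235, 215 and 308 in wild type at D0, and 385, 378 and 382 in pif3 against 296, 301 and 268 in wild type at D1. The genotypes were apart at each time, but the change of 0.44 had an adjusted p of 0.11. IAA29, a known target of PIF proteins, gave 0.22 (adjusted p = 0.26), and HAT2, a shade-induced homeobox gene, -0.11 (adjusted p = 0.48). GID1C, a gibberellin receptor, gave 0.06 and EXO, a brassinosteroid-responsive gene, 0.08 (adjusted p = 0.78 and 0.79). EIN3, the ethylene transcription factor, gave 0.06, LYC, a lycopene cyclase, 0.11 and GI, the clock gene GIGANTEA, -0.04 (adjusted p = 0.65, 0.57 and 0.89). HYH, the homologue of the light-response factor HY5, read -6.09 to 7.62 in the 6 pif3 arrays and 0.515 to 9.96 in the 6 wild-type arrays, near 0 in both genotypes. Of 410 list entries, 71 were measured under a name, and 8730 tested probe sets are not listed in that annotation.

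Among the few shoot, root and guard cell marker genes measured, none was called, which in so few genes is no result about these tissues. RCA, the 1 shoot marker measured, is given above. EXPA7, a root hair expansin and 1 of 2 root markers measured, read 22.5 to 65.4 in the 6 pif3 arrays and 14.1 to 74.2 in the 6 wild-type arrays with a change of 0.40 (adjusted p = 0.52), and EXPA18 gave 0.04 (adjusted p = 0.99). The guard cell genes FMA, SPCH and MUTE gave 0.24, 0.27 and -0.02 (adjusted p = 0.37, 0.69 and 0.88), with SPCH and MUTE near or below 0 in most arrays. In whole seedlings, fewer cells of a type and less RNA per cell cannot be told apart.

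At D0 alone, 67 probe sets changed (0.295%), 51 higher (0.224%) and 16 lower (0.0703%), and at D1 alone 9 changed (0.0396%), 6 higher (0.0264%) and 3 lower (0.0132%). All 9 called at D1 were also called at D0 and in the mean. Of the 67 called at D0, 61 had the same sign at D1 and 49 also had an unadjusted p under 0.05 there in limma. Of all 22746 probe sets, 1709 had such a p at D1, in either direction. Both times came from the same fit, with 1 spread per probe set. A probe set with a small estimated spread more readily has a small p at both times, so these counts are not independent of the choice. The median size of the 67 was 0.56 at D0 and 0.35 at D1, signed as at D0, the values on which the 67 were picked. Of the 200 named genes called in the mean, 96 of 127 higher and 48 of 73 lower had the larger change at D0. The change between times itself, the genotype difference at D1 minus that at D0, was not called for any probe set (0.0%) by limma, with 857 at an unadjusted p under 0.05 and a smallest adjusted p of 0.0986. A smaller number at D1 is therefore not shown to be a smaller effect. The D0 count was 25, 257 and 18 without pif3 D0 replicates 1, 2 and 3, 41 without pif3 D1 replicate 1, 44 without wild type D0 replicate 2 and 38 without wild type D1 replicate 1. The D1 count was 15 and 5 without pif3 D1 replicates 2 and 3, 15 without wild type D0 replicate 1 and 5 without wild type D1 replicate 1. The count for the change between times was 8 without pif3 D0 replicate 2, 4 without wild type D0 replicate 1, 2 without pif3 D1 replicate 1 or wild type D0 replicate 2, and 1 without pif3 D0 replicate 1, pif3 D1 replicate 3 or wild type D1 replicate 2. Without both low-25S arrays it was 6, with 56 at D0 and 15 at D1.

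AT1G07440 and AT5G19940 were among the 5 largest D0 increases of genes called at D0 whose arrays stood apart there. AT1G07440 read 169, 207 and 226 in pif3 against 116, 117 and 136 in wild type at D0, and 182, 198 and 163 in pif3 against 117, 131 and 121 in wild type at D1. AT5G19940 read 1506, 1618 and 1387 in pif3 against 828, 1054 and 1004 in wild type at D0, and 1342, 1290.2 and 1395 in pif3 against 1005, 1062 and 822 in wild type at D1. Both stood apart between genotypes at each time, with D0 changes of 0.63 (SE 0.10, adjusted p = 0.0184) and 0.64 (SE 0.12, adjusted p = 0.0479), and D1 changes of 0.50 and 0.48 that did not pass the test alone. AT3G24460, called higher at D0 (0.79, adjusted p = 0.0106), read -15.2 to 17.8 in the 6 pif3 arrays and -19.3 to 5.86 in the 6 wild-type arrays, near or below the offset, so its size rests on the offset. It also had the smallest p of the named genes for the change between times (-0.94, adjusted p = 0.32). AT1G11740, AT5G49390 and AT2G31730 were lower at D0 by -0.78, -0.67 and -0.61 (adjusted p = 0.0485, 0.0224 and 0.0485), and gave -0.18, -0.32 and -0.42 at D1.

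**Figure D4:**
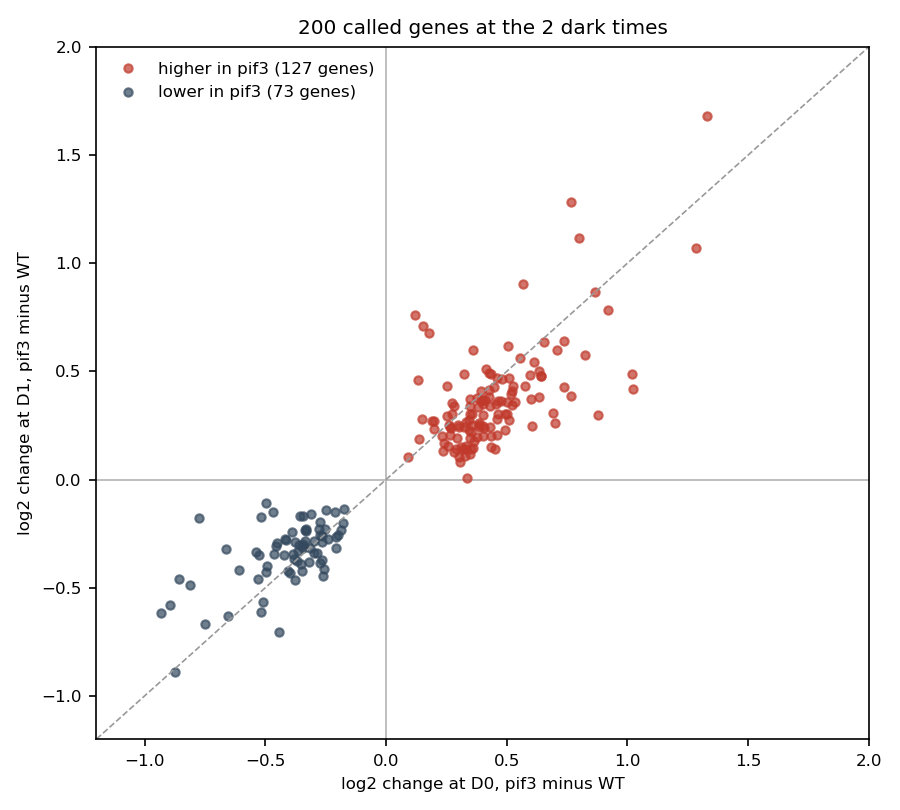
Log2 change in pif3 at D0 (horizontal axis) and at D1 (vertical axis) of the 200 named genes called in the mean, red for the 127 higher and dark blue for the 73 lower in pif3, with a dashed line where both times are equal. All points lie in the quadrants of equal sign, as a mean over both times selects for, and more of them have the larger size at D0.

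Red light was tested in arrays that share none with the comparison of genotypes: wild type after 18 h of red light against wild type kept dark for the same time. Both comparisons came from the same fit, with 1 spread per probe set from all 21 arrays. A gene with a small estimated spread is more readily called in both, so the shares below are not independent of the choice of genes. In all 13355 named genes, 31.6% were called, 12.4% higher and 19.2% lower after red light. Of the 127 genes higher in dark pif3, 46 (36.2% of them and 2.77% of the 1661 genes higher after red light) were also higher after red light. A like number, 48 (37.8%, and 1.87% of 2565), were lower. Of the 73 genes lower in dark pif3, 30 (41.1%, and 1.17% of 2565) were lower after red light and 3 (4.11%, and 0.181% of 1661) were higher. The 25S signal ran from 2650 to 3423 in the R18 arrays and from 365 to 4306 in the D18 arrays. Genes higher in pif3 thus went both ways in red light, 36.2% higher against 12.4% of all named genes and 37.8% lower against 19.2%. Of genes lower in pif3, 41.1% were lower after red light, against 19.2% of all named genes, and 4.11% were higher, against 12.4%.

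Among genes higher in pif3, AT5G48490 had the largest rise in red light. It read 3341, 2736 and 3698 after 18 h of red light against 64.3, 66.8 and 94.1 in darkness, a log2 change of 5.17 (SE 0.21, adjusted p = 1.6e-10). AT3G05730 read 1549, 1382 and 2338 after 18 h of red light against 122, 91.2 and 132 in darkness, a change of 3.73 (adjusted p = 4.4e-06). The photosynthesis genes called in pif3 rose too, by 2.19 for PSAN, 1.64 for HPR, 1.33 for LHCB4.2, 1.12 for LHCB4.1 and 1.11 for NdhS, each at an adjusted p no larger than 4.2e-07. SWEET1 rose by 1.16 (adjusted p = 2.8e-07). Of the genes that fell in red light although higher in pif3, CCL read 1101, 858 and 1111 after 18 h of red light against 3676, 3784 and 3851 in darkness, a change of -1.87 (adjusted p = 2e-08). IQD22 gave -1.49, SPT -1.42 and AT4G33490 -1.14 (adjusted p = 2.7e-07, 7.3e-10 and 2.1e-05). IAGLU, at -0.63 (adjusted p = 2.2e-05), was lower after red light as well, and UGT76C2, at 0.45 (adjusted p = 0.00115), higher.

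Of the genes lower in pif3, M17 read 65.4, 64.1 and 57.9 after 18 h of red light against 334, 339 and 632 in darkness, a change of -2.46 (adjusted p = 1.9e-06). The other 5 genes of the seed maturation list, none of them called in pif3, were all lower after red light, from -3.75 for PAP85 to -1.03 for LEA4-5. The 3 genes lower in pif3 and higher after red light were TBL45, GPDHC1 and AT1G56720, named here after their values were seen. TBL45 read 898, 1076 and 996 after 18 h of red light against 322, 324 and 286 in darkness, a change of 1.62 (adjusted p = 1.7e-10), and GPDHC1 changed by 0.45 (adjusted p = 0.00057). TBL37 and ATPMEPCRD gave -0.20 and -0.39 (adjusted p = 0.11 and 0.00968).

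**Figure D5:**
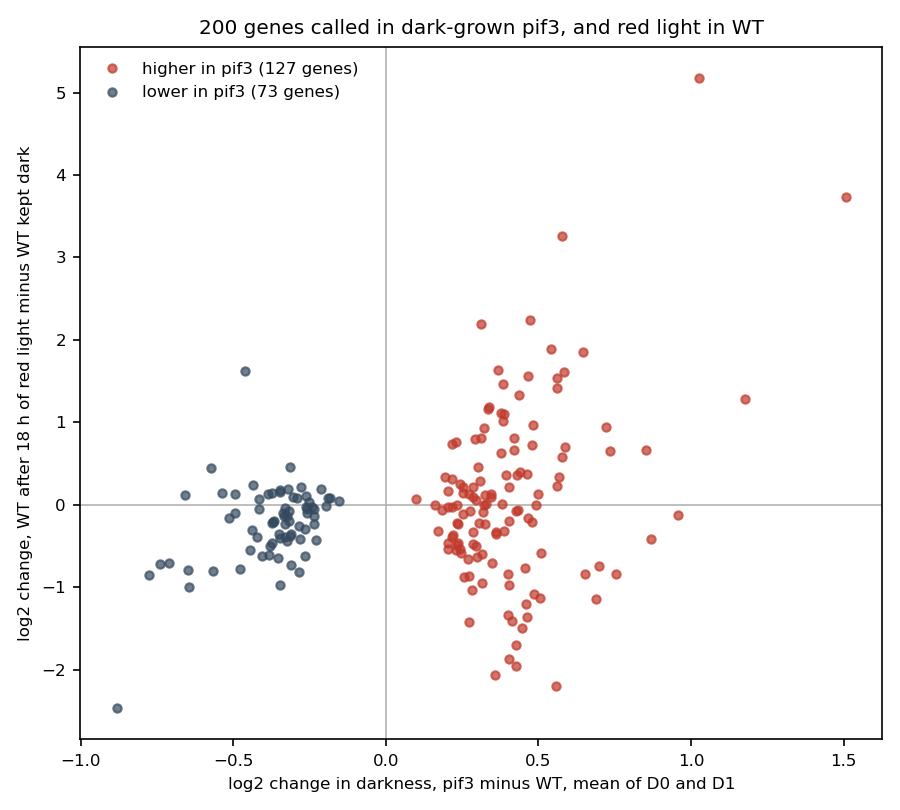
Log2 change in dark-grown pif3 (mean of D0 and D1, horizontal axis) and log2 change in wild type after 18 h of red light against 18 h more of darkness (vertical axis) of the 200 named genes called in pif3, red for those higher and dark blue for those lower in pif3. The red points spread above and below 0 on the vertical axis, with AT5G48490 highest, and more dark blue points lie below 0 than above it.

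After 1 h of red light, wild type is measured against the same D1 arrays that serve the pif3 comparison, so values are given side by side only. The 25S signal was 128, 466 and 177 in the 3 R1 arrays against 4776, 689 and 4306 in the 3 wild-type D1 arrays, and its part in these values was not tested. LHCB4.2 changed by 0.42 (adjusted p = 0.00306) and by 0.43 in pif3 at D1, and NdhS by 0.40 (adjusted p = 0.0281) and 0.34. SPT changed by -0.27 (adjusted p = 0.0346) and 0.18, and TBL45 by -0.20 (adjusted p = 0.14) and -0.43. AT5G16030, AT3G05730 and AT5G48490, with the largest called increases in pif3, gave -0.08, 0.06 and 0.74 after 1 h of red light (adjusted p = 0.93, 1.00 and 0.0659).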

How the data were processed

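The authors deposited 1 intensity per probe set and array on a linear scale, partly below 0. The software that summarised the probes is not given in the sources used here, and no detection calls were used. Starting from the deposited intensities, the 21 arrays were quantile-normalized over 22810 probe sets, values below 0 were set to 0, 16 was added and log2 was taken. After removal of 64 controls, 22746 probe sets were fitted with limma 3.58.1 (lmFit, eBayes; R 4.3.3) to the 7 group means, with 1 spread estimated from the 21 arrays together. P-values were Benjamini-Hochberg adjusted over all probe sets and called under 0.05, and SEs are limma's. A gene is its brightest probe set with exactly 1 gene in the platform annotation, with symbols from the RefSeq TAIR10.1 gene table. Of the tested probe sets, 8730 are not listed there.

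Named genes were the 10 largest increases and decreases in the mean and the 5 at each time that were called with arrays apart, the called members of each list with the smallest p (up to 4, and 2 per gene family), or else the 1 member with the smallest p. Called genes with a symbol and other members were added after their values were seen. The members and lists were chosen with earlier results of these data known. The fit was tested on simulated data. Each array gives 1 value, so the number of arrays limits the precision. The alternatives were other scalings, offsets of 4 and 64, a minimum mean intensity of 64, the 12 dark arrays alone, array weights, the 25S signal as a covariate, a replicate block, and leaving out arrays.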

Additional observations from a re-analysis of the deposited data

How the results depend on the processing

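In the mean of D0 and D1, 406 probe sets were called. Without scaling between arrays the count was 4, the 12 dark arrays fitted alone gave 233, the 25S signal as a covariate 251, and leaving out both low-25S arrays 191. At D0 (67) the counts were 1 without scaling, 109 with scaling to the median, 43 with an offset of 4, 11 with the 12 dark arrays alone and 17 with array weights. At D1 (9) they were 2 without scaling, 4 with the 12 dark arrays alone, 61 with array weights, 5 with the 25S covariate and 15 without both low-25S arrays. For the change between times (0) the count was 6 without both low-25S arrays. Leaving out 1 array at a time gave 180 to 569 in the mean, 18 to 257 at D0, 5 to 15 at D1 and 0 to 8 for the change between times. The cause of these shifts was not tested.

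Without scaling, 1 of the 4 calls in the mean was higher, and the median log2 change of all tested probe sets was -0.16 at D0. Scaling to the median made 87.2% of the D0 calls higher, against 76.1%, and the 12 dark arrays alone made 50.6% of the calls in the mean higher, against 63.3%. Of 406 probe sets, 138 were called in all 12 fits that left out 1 array, and 27 of the 200 named genes were called in those and in all other settings but the one without scaling. None of the 200 named genes called in the mean, nor of the 27 called at D0 or the 2 at D1, changed sign in any of these settings. The settings refit the same data, and a call picks values far from 0 against their SE, so sign changes were unlikely. Of genes that were not called, GI turned to 0.0007 with array weights, GI ran from -0.0738 to 0.0294 (without pif3 D0 replicate 2) and EXO from -0.0091 (without wild type D0 replicate 1) to 0.1379 when 1 array was left out, and GID1C turned to -0.0208 without scaling. The labels do not say whether equal replicate numbers pair the arrays. Deviations of same-numbered arrays correlated at -0.253 to 0.359, which does not decide it, and the main fit used no pairing. With a replicate block the counts were 474 in the mean, 77 at D0, 8 at D1 and 0 for the change between times.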
